A study of Homo sapiens with 12 samples.

Results

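The 10 genes described here, CDH1, EPCAM, CDH2, VIM, FN1, ZEB1, ZEB2, SNAI1, SNAI2 and TWIST1, are the classical markers and regulators of the epithelial and mesenchymal states. They were chosen by name, and each was matched by its Ensembl identifier to 1 of the 20345 rows of an expression table of HGC-27 cells, a human gastric cancer line. Of the 10 genes, 8 reached a mean of at least 1 FPKM (fragments per kilobase of transcript and scaled to the depth of the library) and were among the 11225 rows tested. EPCAM and CDH2 stayed under 1 FPKM in every library and are given as levels only.

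Epithelial cells hold to each other through E-cadherin (CDH1), a calcium-dependent adhesion protein that is tied to the actin cytoskeleton by catenins, and many carry the adhesion protein EPCAM on their surface. In epithelial-mesenchymal transition, a programme used in development, wound repair and tumour spread, these proteins are lost and N-cadherin (CDH2), the intermediate filament protein vimentin (VIM) and the matrix glycoprotein fibronectin (FN1) are gained. The transcription factors SNAI1, SNAI2, ZEB1 and ZEB2 bind E-box sequences and repress CDH1, while TWIST1, a basic helix-loop-helix factor, promotes the same programme.

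RNA was sequenced from 12 libraries in 4 groups of 3. HGC-27 cells with no edit named in the labels (WT) and HGC-27 cells whose label is TEAD4 knockout (TEAD4KO) were each taken untreated and after GLUP, and all 4 groups were otherwise cultured in the same medium. The labels give no dose or duration of GLUP and the study's text gives more than 1 duration, so the exposure behind these libraries is unknown. GLUP is a synthetic cyclic peptide designed to bind TEAD4, the Hippo pathway transcription factor, and to bring TEAD4 molecules together. The labels name neither the guide nor the number of clones behind the TEAD4KO cells, nor whether the 3 libraries of a group came from separate cultures, so p-values measure only the spread between these libraries, which may be technical.

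Some properties of the libraries touch every comparison by label. TEAD4 itself was not lower in libraries labelled TEAD4KO, at 26.0 to 30.1 FPKM, than in WT libraries, at 22.9 to 25.8 FPKM, so the transcript does not bear out the label, although an edit that leaves the transcript in place would not show in these values. On the first principal component (39.7% of the variance), WT libraries lay between -16.2 and -3.71 and 4 libraries labelled TEAD4KO between 9.91 and 19.8, whereas TEAD4KO untreated replicate 1 (-0.962) and TEAD4KO GLUP replicate 16 (-5.26) lay near or among the WT libraries. The share of rows at 0 FPKM was 21.1% to 22.3% in WT libraries and 23.7% to 25.5% in libraries labelled TEAD4KO. Differences between labels also followed transcript length across rows (Spearman's rho = -0.48 in untreated cells over 11077 rows, given as a description). Sequencing depth is unknown. The bulk values cannot tell fewer cells of a type from less RNA per cell.

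HGC-27 cells expressed VIM, TWIST1, ZEB1, SNAI2 and SNAI1 at moderate to high levels, FN1 and ZEB2 below the middle of the rows tested, and both epithelial markers at low levels. The mesenchymal cadherin CDH2 was at a level near 0. VIM was the highest of the 10 genes in every library, at 1238 to 1704 FPKM, which was rank 25 from the top of all rows by mean. TWIST1 followed at 75.2 to 110.2 FPKM, above 94.8% of the rows tested. ZEB1 lay at 15.9 to 23.3 FPKM, SNAI2 at 13.4 to 17.2 FPKM and SNAI1 at 10.0 to 13.6 FPKM, so that all 3 were expressed side by side near or above the middle of the rows tested. FN1 was at 3.85 to 9.15 FPKM, above 33.7% of the rows tested, and ZEB2 at 4.48 to 6.15 FPKM, above 29.2%. CDH1 was still detected, at 2.04 to 3.68 FPKM, but lay above only 14.4% of the rows tested. EPCAM, the other epithelial marker, was at 0.028 to 0.169 FPKM, and CDH2, the mesenchymal cadherin, was as low at 0.0331 to 0.149 FPKM.

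**Figure D1:**
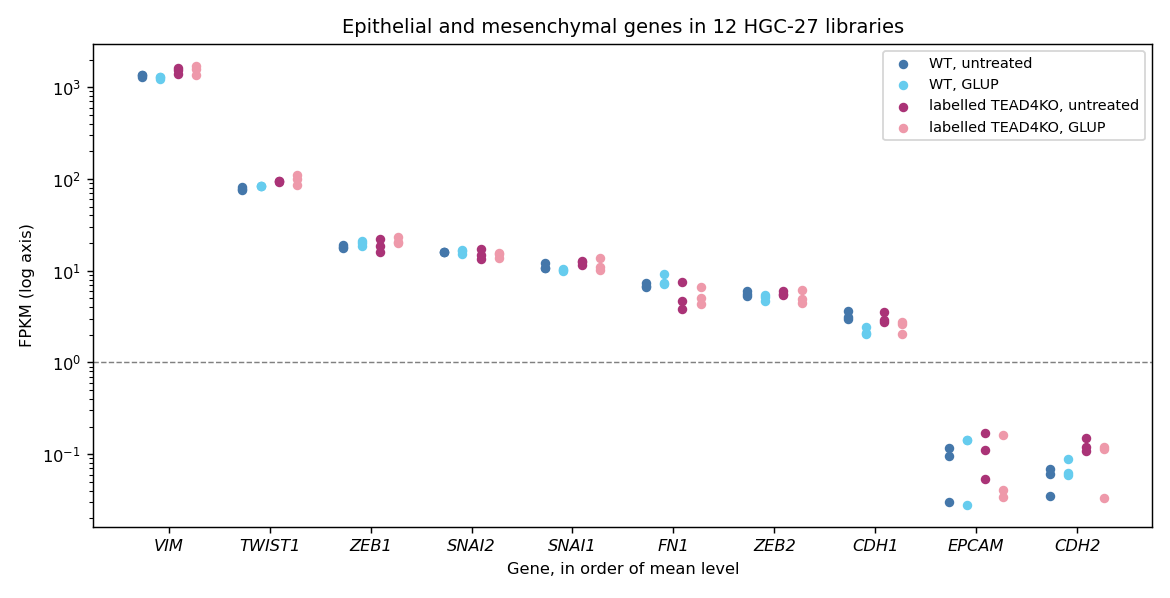
FPKM of the 10 genes on a log axis, ordered by mean level, with 1 point for each of 12 libraries coloured by group and a dashed line at 1 FPKM. VIM stands at 1238 to 1704 FPKM, and EPCAM and CDH2 lie under the line in every library.

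The order of the genes was nearly the same in all libraries. ZEB1 exceeded SNAI2, and SNAI2 exceeded SNAI1, in 12 of 12 libraries, although the ranges of these neighbours overlapped across libraries. FN1 exceeded ZEB2 in 9 of 12 libraries and EPCAM exceeded CDH2 in 7 of 12, so neither pair could be ordered beyond its spread. All other neighbours in the order had ranges that did not overlap. FN1 had the widest spread of the tested genes, with a coefficient of variation over the 12 libraries of 24.5% in FPKM, followed by CDH1 at 19.6%, whereas SNAI2 had the narrowest at 7.1%. The ratio of the 2 ZEB factors, ZEB1 over ZEB2 in FPKM, was 3.24 ± 0.274 (SD, n = 3) in untreated WT cells, and that of SNAI2 over SNAI1 was 1.44 ± 0.12 (SD, n = 3).

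Genes of the same kinds outside the 10 were examined in lists drawn from general knowledge. Of 28 other epithelial genes in the table, 17 were under 1 FPKM in every library and 9 had a mean of at least 1 FPKM. The highest in untreated WT cells were TJP1 (23.0 ± 1.57 FPKM, SD over 3 libraries), AP1M2 (9.64 ± 0.534 FPKM) and MUC1 (9.17 ± 0.633 FPKM). KRT8, a simple epithelial keratin, reached 5.34 ± 0.247 FPKM there, but its usual partner KRT18 was at 0.2 ± 0.0988 FPKM. Of 15 regulators of the epithelial state, 9 were under 1 FPKM throughout, whereas KLF5, the highest, was at 33.0 ± 1.31 FPKM in untreated WT cells. In contrast, 24 of 30 other mesenchymal genes had a mean of at least 1 FPKM, with a median of 26.2 FPKM over the list in untreated WT cells against 0.353 FPKM for the other epithelial genes. The LGALS1 gene for galectin-1 (541 ± 22.7 FPKM), SPARC (74.8 ± 4.81 FPKM), a matrix glycoprotein, and ACTA2 (70.8 ± 6.07 FPKM), a smooth muscle actin, were examples of high ones. Others of the same list were low, such as VCAN (0.0495 ± 0.0437 FPKM), FGFR1 (0.174 ± 0.0595 FPKM) and NT5E (0.368 ± 0.143 FPKM). The catenins that anchor classical cadherins were well expressed, with CTNNA1 at 87.0 ± 2.64 FPKM and CTNNB1 at 47.3 ± 0.334 FPKM, and all 12 genes of the cadherin complex list passed the filter.

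**Figure D2:**
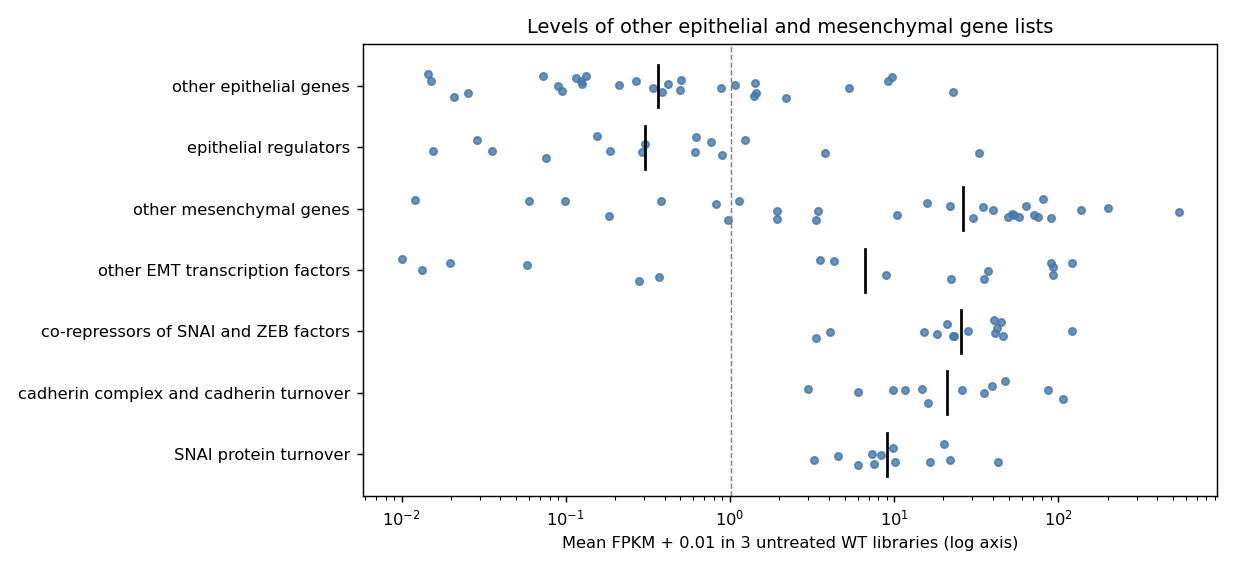
Mean level in 3 untreated WT libraries, as FPKM + 0.01 on a log axis, for each gene (points) of 7 lists, with the list median as a black bar and a dashed line at 1 FPKM. The median of the other epithelial genes is 0.353 FPKM and that of the other mesenchymal genes 26.2 FPKM.

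The labelled cell type was compared with markers. Of 9 gastric epithelial markers in the table, 8 were under 1 FPKM in every library, and TFF1, TFF2 and GKN1, secreted products of the gastric mucosa, were listed at 0 in all 12. CDX2, an intestinal factor, was at 1.23 ± 0.153 FPKM in untreated WT cells. All 6 fibroblast markers passed the filter, and their summed level was 666 to 697 FPKM in untreated WT libraries, 701 to 762 FPKM in WT libraries with GLUP, 649 to 785 FPKM in untreated libraries labelled TEAD4KO and 611 to 730.2 FPKM in those with GLUP. Most of that sum was the collagen genes COL3A1 and COL1A1. The defining endothelial marker CDH5 and the T cell marker CD3E were listed at 0 in all 12 libraries.

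Sequences before the start sites were read from the RefSeq table (GRCh38.p14), and those of VIM, FN1 and ZEB1 are printed. Entries were matched for CDH2, VIM, FN1, ZEB1 and ZEB2, and not for CDH1, EPCAM, SNAI1, SNAI2 and TWIST1. Each window holds the 250 bases before a start site, read 5′ to 3′ on the strand of the gene. The motifs searched on both strands were the E-box CACCTG, bound by SNAI and ZEB factors, and GGAATG, the core bound by TEAD factors. Read from the opposite strand they are CAGGTG and CATTCC. No window printed holds both. Among 35116 windows of the same length, 17.5% held the E-box and 11.9% the TEAD motif. Capitals mark the E-box, which stood in the first window of ZEB1 at position -57.
VIM, chr10:17227991-17228240, plus strand: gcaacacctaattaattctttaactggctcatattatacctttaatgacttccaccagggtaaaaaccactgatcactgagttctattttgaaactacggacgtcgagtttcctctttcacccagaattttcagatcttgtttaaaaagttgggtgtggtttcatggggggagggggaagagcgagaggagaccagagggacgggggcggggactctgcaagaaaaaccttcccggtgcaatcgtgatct
FN1, chr2:215436069-215436318, minus strand: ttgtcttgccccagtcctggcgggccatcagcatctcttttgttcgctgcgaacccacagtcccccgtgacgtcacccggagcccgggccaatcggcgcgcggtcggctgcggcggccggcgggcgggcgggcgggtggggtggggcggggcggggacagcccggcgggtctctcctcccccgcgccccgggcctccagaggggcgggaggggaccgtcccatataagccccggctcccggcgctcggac
ZEB1, chr10:31318167-31318416, plus strand: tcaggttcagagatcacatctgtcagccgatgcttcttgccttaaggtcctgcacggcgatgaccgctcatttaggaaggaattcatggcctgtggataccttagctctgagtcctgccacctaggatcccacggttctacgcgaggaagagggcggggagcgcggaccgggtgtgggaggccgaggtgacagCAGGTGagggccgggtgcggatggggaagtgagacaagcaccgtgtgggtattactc

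Neither motif was found in the windows of VIM, FN1, CDH2 or ZEB2. Of the 7 windows of ZEB1, 2 held an E-box and 0 held the TEAD motif. A match is a description of letters, and its absence says only that these letters are not in this window.

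Whether GLUP changed the epithelial or mesenchymal genes was examined first in WT cells. No member passed an adjusted p under 0.05 in this comparison. CDH1 (GRCh37 chromosome 16, 68771195 to 68869440, plus strand) had the largest difference. It measured 3.68, 2.99 and 3.17 FPKM in WT cells left untreated and 2.04, 2.43 and 2.1 FPKM in WT cells given GLUP. Every GLUP library was thus below every untreated library. On average CDH1 differed by -0.42 ± 0.11 (SE, with n = 3 in either group) on the log2(FPKM + 1) scale, on which changes of low genes are understated. Its unadjusted p was 0.00232 and its limma Benjamini-Hochberg adjusted p was 0.636. Over the alternatives the adjusted p ranged from 0.0277, with array weights, to 1.0, and in 0 of 12 fits that left out 1 library was it under 0.05.

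Among the tested genes 0 of 8 passed in WT cells by limma, with 1 at an unadjusted p under 0.05, against 0.00891% of all rows called and 385 rows at an unadjusted p under 0.05. In addition to CDH1, the groups did not overlap for SNAI1, which was lower with GLUP, and TWIST1, which was higher, so that 3 of 8 genes did not overlap against 17.3% of all rows. SNAI1 measured 12.3, 10.7 and 10.6 FPKM without and 10.0, 10.6 and 10.1 FPKM after the peptide. These groups were parted by less than the printed digits, and the log2 fold change was -0.11 ± 0.10 (SE, adjusted p by limma = 0.999). TWIST1 measured 82.2, 77.5 and 75.2 FPKM without and 84.7, 82.8 and 83.7 FPKM after the peptide. Its log2 fold change was 0.10 ± 0.08 (SE, adjusted p by limma = 0.999). For the 5 transcription factors of the set, the estimates ± 2 SE lay between -0.33 and 0.31 on the log2 scale. Each is an approximate interval for 1 gene alone, so larger differences are not excluded.

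VIM, the most abundant of the set, measured 1369, 1343 and 1297 FPKM in WT cells left untreated and 1290.1, 1300.5 and 1238 FPKM in WT cells given GLUP. The groups overlapped, with a log2 fold change of -0.07 ± 0.09 (SE, adjusted p by limma = 0.999). FN1 measured 6.75, 6.58 and 7.37 FPKM without and 7.31, 7.19 and 9.15 FPKM after the peptide. These groups also overlapped (log2 fold change 0.16 ± 0.18, SE, adjusted p by limma = 0.999). EPCAM measured 0.116, 0.0959 and 0.0298 FPKM without and 0.143, 0.142 and 0.028 FPKM after the peptide. CDH2 measured 0.0346, 0.0694 and 0.0609 FPKM without and 0.063, 0.089 and 0.0595 FPKM after the peptide. Both stayed far under 1 FPKM in either group.

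In cells labelled TEAD4KO, GLUP gave no called member either. CDH1 measured 3.51, 2.87 and 2.76 FPKM without and 2.64, 2.07 and 2.79 FPKM after the peptide. The highest GLUP library lay just above the lowest untreated one, and the log2 fold change was -0.21 ± 0.11 (SE, adjusted p by limma = 0.827). ZEB1 measured 15.9, 18.6 and 22.0 FPKM without and 20.3, 23.3 and 20.5 FPKM after the peptide. The groups overlapped, with a log2 fold change of 0.18 ± 0.10 (SE, adjusted p by limma = 0.829). By limma 0 of 8 genes passed, 0 reached an unadjusted p under 0.05 and 0 had groups that did not overlap, against 0.0445% of all rows called, 716 rows at an unadjusted p under 0.05 and 6.83% of rows not overlapping.

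Whether the response to GLUP differed between the labels was tested as an interaction. For CDH1 the log2 fold change with GLUP was higher by 0.21 ± 0.16 (SE) in cells labelled TEAD4KO than in WT cells (limma adjusted p = 1.0), so the larger estimate in WT cells was not shown to differ from the smaller one. Of the 8 genes 0 passed and 0 reached an unadjusted p under 0.05, against 0.00891% of all rows called and 284 rows at an unadjusted p under 0.05. The estimate ± 2 SE for CDH1 ran from -0.11 to 0.53.

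The GLUP effect averaged over both labels, a comparison added after seeing the data, gave CDH1 a log2 fold change of -0.32 ± 0.08 (SE, adjusted p by limma = 0.203). Its adjusted p ranged from 0.0627 to 0.521 over the alternatives and was therefore over 0.05 in all of them. ZEB1 had a log2 fold change of 0.15 ± 0.07 (SE, adjusted p by limma = 0.695), and VIM one of -0.03 ± 0.06 (SE, adjusted p by limma = 0.972). By limma 0 of 8 genes passed and 2 reached an unadjusted p under 0.05, against 0.258% of all rows called and 801 rows at an unadjusted p under 0.05.

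Without correction for GC content and transcript length, the other lists gave 1 call with GLUP, in a table with few calls of any kind. In each genotype alone, 0 of the 84 genes tested in the 7 lists passed by limma, with 11 at an unadjusted p under 0.05 in WT cells and 15 in cells labelled TEAD4KO, beside 0.00891% and 0.0445% of all rows called and 385 and 716 of 11225 rows at an unadjusted p under 0.05. TNC, a matrix glycoprotein, had the largest difference among the other mesenchymal genes in WT cells, with 1.92 ± 0.091 FPKM in untreated and 3.49 ± 0.507 FPKM in treated libraries (SD, a log2 difference of 0.62 ± 0.13, SE, adjusted p by limma = 0.298). Of the 24 other mesenchymal genes tested, 22 had an estimate above 0 in WT cells, with a median log2 fold change of 0.072 against 0.009 over all rows, and 12 in cells labelled TEAD4KO, with a median of 0.003 against -0.017. Of the 6 fibroblast markers, 5 were also above 0 in WT cells, with a median of 0.152, and COL1A2 had the smallest unadjusted p among them (log2 fold change 0.44, unadjusted p = 0.00798). Differences with GLUP in WT cells followed transcript length across rows (Spearman's rho = 0.22 over 11077 rows, as a description). For mesenchymal genes at an unadjusted p under 0.05 by limma in WT cells, estimates with that correction are as follows. TNC moved from 0.62 to 0.58, TGFBI from 0.52 to 0.50, FAP from 0.35 to 0.34 and ACTA2 from 0.32 to 0.31. MMP2 moved from 0.32 to 0.31, PLAUR from 0.29 to 0.31, CD44 from 0.26 to 0.22 and MMP14 from 0.24 to 0.23. Corrected values of the whole list are not given, and the part of these markers and of length in its estimates was not tested. Averaged over both labels, ACTA2 rose, from 70.8 ± 6.07 to 88.7 ± 2.11 FPKM in WT cells and from 89.7 ± 4.49 to 107 ± 9.71 FPKM in cells labelled TEAD4KO. Its log2 fold change was 0.29 ± 0.05 (SE, adjusted p by limma = 0.0463, ranging from 0.00718 to 0.162 over the alternatives). Without the correction it was the 1 gene of the 84 tested in these lists that passed, beside 0.258% of all rows called. After the correction ACTA2 still passed (0.30, limma adjusted p = 0.0304). Rises of MMP14 (0.23, adjusted p = 0.00316), TNC (0.47, adjusted p = 0.00454), SOX4 (0.24, adjusted p = 0.0116), TCF4 (0.26, adjusted p = 0.0239) and CD44 (0.20, adjusted p = 0.0429) then passed too. So did a fall of AJUBA (-0.27, limma adjusted p = 0.0158). The share of all rows called after the correction is not given, so the corrected calls cannot be read as a response of these lists. Of the 6 fibroblast markers, PDGFRA passed in the same comparison (log2 fold change 0.30 ± 0.05, SE, adjusted p by limma = 0.0349, ranging from 0.0186 to 0.139), and the part of such markers in the ACTA2 value was not tested.

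**Figure D3:**
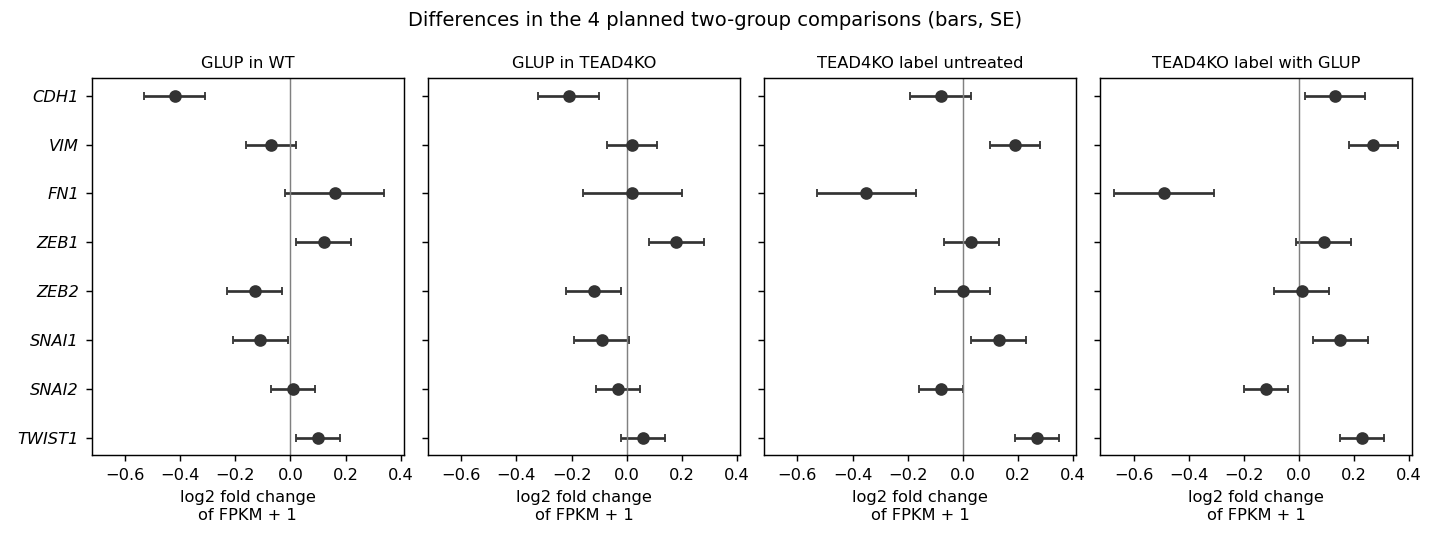
Log2 fold change of FPKM + 1 for the 8 tested genes in the comparisons of GLUP in each genotype and of the TEAD4KO label in each treatment, with SE as bars. CDH1 is lowest with GLUP in WT cells at -0.42, and TWIST1, VIM and FN1 lie farthest from 0 by label.

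The second question was how the cells labelled TEAD4KO differed from WT cells, first without treatment. TWIST1 (GRCh37 chromosome 7, 19060614 to 19157259, minus strand) measured 82.2, 77.5 and 75.2 FPKM in WT cells and 92.9, 95.0 and 95.7 FPKM in cells labelled TEAD4KO. The groups did not overlap. Its log2 fold change was 0.27 ± 0.08 (SE, adjusted p by limma = 0.0529), just over the threshold. VIM (GRCh37 chromosome 10, 17270240 to 17279592, plus strand) measured 1369, 1343 and 1297 FPKM in WT cells and 1406, 1611 and 1551 FPKM in cells labelled TEAD4KO. Its groups did not overlap, with a log2 fold change of 0.19 ± 0.09 (SE, adjusted p by limma = 0.227).

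FN1 (GRCh37 chromosome 2, 216225163 to 216300796, minus strand) measured 6.75, 6.58 and 7.37 FPKM in WT cells and 7.6, 3.85 and 4.71 FPKM in cells labelled TEAD4KO. The groups overlapped because of TEAD4KO untreated replicate 1, which was the highest of the 6. The log2 fold change was -0.35 ± 0.18 (SE, adjusted p by limma = 0.282), and without that library the adjusted p was 0.0277. By limma 0 of 8 genes passed and 2 reached an unadjusted p under 0.05, against 5.42% of all rows called and 2434 rows at an unadjusted p under 0.05, and 2 did not overlap against 25.7% of all rows. When both libraries that stood apart on the first component, TEAD4KO untreated replicate 1 and GLUP replicate 16, were left out together, a setting added after seeing the data, FN1 (log2 fold change -0.58, limma adjusted p = 0.0055), TWIST1 (0.28, adjusted p = 0.00616) and VIM (0.24, adjusted p = 0.0111) passed. With correction for GC content and transcript length none of the 3 passed, and the log2 fold changes were -0.25 for FN1 (limma adjusted p = 0.395), 0.11 for TWIST1 (adjusted p = 0.384) and 0.14 for VIM (adjusted p = 0.382). Over all alternatives, the adjusted p ranged from 0.0055 to 0.688 for FN1, from 0.00616 to 0.384 for TWIST1 and from 0.0111 to 0.496 for VIM. The low ends came from leaving out both libraries that stood apart. Those 2 libraries were picked for lying near or among WT libraries in these same values. Leaving them out therefore tends by itself to widen the difference by label, and the calls under it are not separate evidence.

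CDH1 was close to its WT level in untreated cells labelled TEAD4KO (log2 fold change -0.08 ± 0.11, SE, adjusted p by limma = 0.717, with ± 2 SE from -0.31 to 0.14). CDH2 was at 0.149, 0.107 and 0.118 FPKM there, above each of the untreated WT libraries, but below the level at which rows were tested. EPCAM was at 0.0542, 0.112 and 0.169 FPKM, which overlapped with WT. SNAI2 measured 15.99, 16.13 and 15.99 FPKM in WT cells and 14.96, 13.45 and 17.17 FPKM in cells labelled TEAD4KO, and its groups overlapped.

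With GLUP, the same 3 genes lay farthest from WT. VIM measured 1290.1, 1300.5 and 1238 FPKM in WT cells and 1704, 1578 and 1348 FPKM in cells labelled TEAD4KO. The groups did not overlap, and the log2 fold change was 0.27 ± 0.09 (SE, adjusted p by limma = 0.0818). FN1 measured 7.31, 7.19 and 9.15 FPKM in WT cells and 5.04, 4.38 and 6.63 FPKM in cells labelled TEAD4KO. Every library labelled TEAD4KO was lower, with a log2 fold change of -0.49 ± 0.18 (SE, adjusted p by limma = 0.124). TWIST1 measured 84.7, 82.8 and 83.7 FPKM in WT cells and 110.2, 99.95 and 86.1 FPKM in cells labelled TEAD4KO. Every library labelled TEAD4KO was higher, with a log2 fold change of 0.23 ± 0.08 (SE, adjusted p by limma = 0.0898).

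Under GLUP 0 of 8 genes passed by limma and 3 reached an unadjusted p under 0.05, against 5.84% of all rows called and 2679 rows at an unadjusted p under 0.05, and 3 did not overlap against 29.5% of all rows. With the replicate number as a block, since the GLUP libraries counted as paired, VIM (limma adjusted p = 0.0488) and FN1 (adjusted p = 0.0485) passed and TWIST1 (adjusted p = 0.0696) did not. With the block and the correction for GC content and length together 0 passed, with a limma adjusted p of 0.0723 for VIM and 0.118 for FN1. Under the correction alone the log2 fold change of TWIST1 was 0.10 (adjusted p = 0.402), that of VIM 0.26 (adjusted p = 0.102) and that of FN1 -0.37 (adjusted p = 0.168). Without TEAD4KO GLUP replicate 16, 3 genes passed, namely FN1, TWIST1 and VIM, and without TEAD4KO untreated replicate 1 FN1 alone passed. With both of these libraries left out the log2 fold changes were 0.36 for VIM (limma adjusted p = 0.00102), -0.63 for FN1 (adjusted p = 0.00248) and 0.32 for TWIST1 (adjusted p = 0.00215). Over all alternatives the adjusted p ranged from 0.00102 to 0.295 for VIM, from 0.00248 to 0.374 for FN1 and from 0.00215 to 0.402 for TWIST1. The low ends again came from leaving out both libraries, a choice that by itself favours a difference by label.

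**Figure D4:**
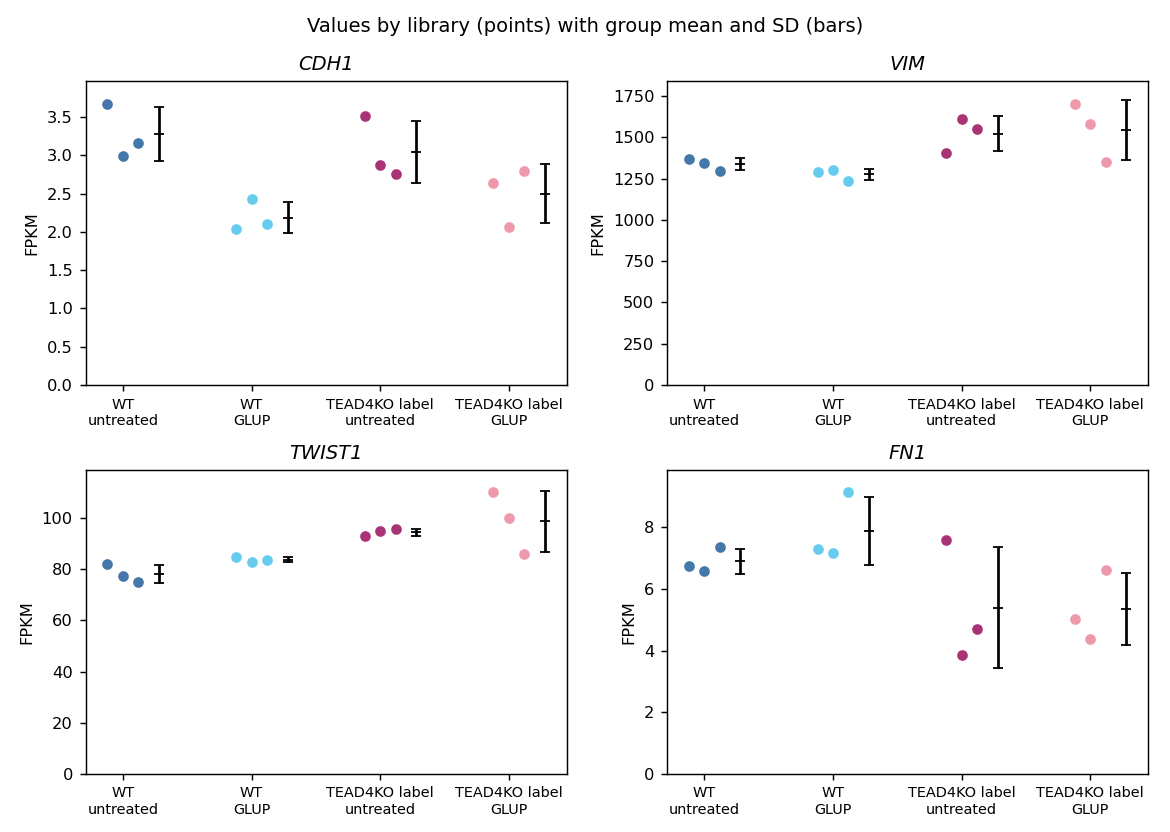
FPKM of CDH1, VIM, TWIST1 and FN1 by library (points, 3 per group), with the group mean and SD as a black bar beside them. CDH1 is lower in all WT libraries with GLUP than in untreated WT libraries, and TWIST1 and VIM are higher in libraries labelled TEAD4KO under either treatment.

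Averaged over both treatments, a comparison added after seeing the data, 3 of 8 genes differed by label. TWIST1 rose (log2 fold change 0.25 ± 0.05, SE, n = 6 per label, limma adjusted p = 0.006), VIM rose (0.23 ± 0.06, SE, adjusted p = 0.0193) and FN1 fell (-0.42 ± 0.13, SE, adjusted p = 0.0342), against 20.0% of all rows called, of which 14.4% of rows were higher and 5.67% lower, and 3905 rows at an unadjusted p under 0.05. The folds were small, at 1.19 for TWIST1, 1.17 for VIM and 0.747 for FN1 on the FPKM + 1 scale, and 0 of the 3 passed a fold over 2. The call held in 12 of 12 fits that left out 1 library for TWIST1 and in 10 of 12 for VIM, which was lost without WT untreated replicate 3 (limma adjusted p = 0.0554) or WT GLUP replicate 16 (adjusted p = 0.0531). The call of FN1 held in 3 of 12, namely without WT GLUP replicate 15, TEAD4KO untreated replicate 1 or TEAD4KO GLUP replicate 16, and the adjusted p was 0.0527 to 0.0893 without any other single library. With quantile normalization the log2 fold change of VIM was 0.09 and its call was lost (limma adjusted p = 0.0772), as it was with median-ratio scaling (0.22, adjusted p = 0.0575) and with no filter (adjusted p = 0.0705). VIM and FN1, which both mark the mesenchymal state, thus differed in opposite directions. The SNAI and ZEB factors and CDH1 did not pass, with adjusted p between 0.163 for SNAI1 and 0.974 for ZEB2.

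Across rows, the differences by label followed the length and GC content of the transcripts (Spearman's rho = -0.497 and 0.247 over 11077 rows, as a description). TWIST1 has a longest annotated transcript of 1630 bases with 57.2% GC, VIM one of 2666 bases with 46.9% GC and FN1 one of 9171 bases with 42.2% GC. After correction of every library for both properties, the log2 fold change of TWIST1 fell from 0.25 to 0.10 (limma adjusted p = 0.145) and that of FN1 moved from -0.42 to -0.31 (adjusted p = 0.0665), whereas VIM was still called at 0.20 (adjusted p = 0.0414). SNAI1, whose transcript has 58.4% GC, moved from 0.14 to -0.01. Over the alternatives the adjusted p ranged from 0.000168 to 0.145 for TWIST1, from 0.000169 to 0.0923 for FN1 and from 0.000143 to 0.0772 for VIM. The lowest values came from leaving out both libraries that stood apart, with log2 fold changes of 0.30 for TWIST1, -0.61 for FN1 and 0.30 for VIM. Because those libraries were picked for their likeness to WT libraries, these values are not separate evidence of a difference by label.

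**Figure D5:**
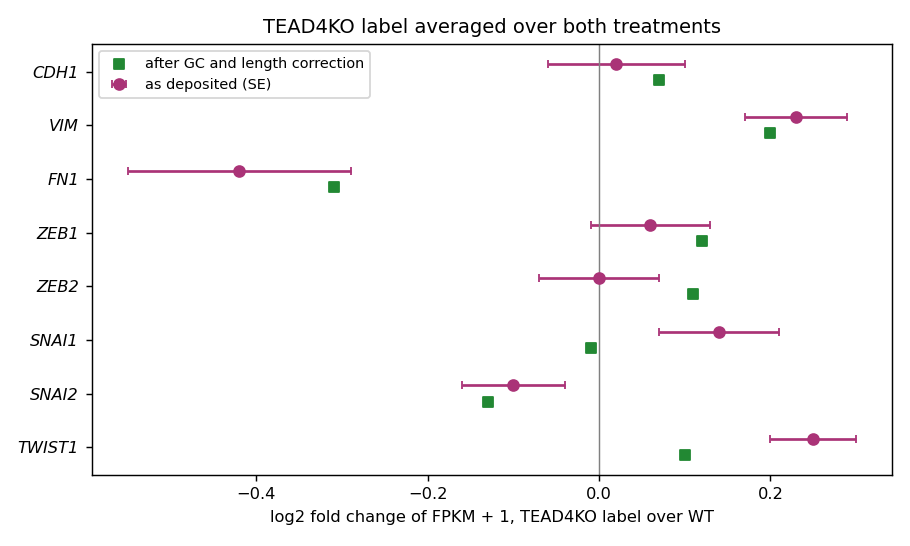
Log2 fold change of FPKM + 1 by label, averaged over both treatments, for the 8 tested genes as deposited (circles, SE as bars) and after correction for GC content and length (squares). TWIST1 moves from 0.25 to 0.10 and SNAI1 from 0.14 to -0.01, and VIM from 0.23 to 0.20.

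The lists around the 10 genes moved by label as follows, in the comparison averaged over both treatments, against the same 20.0% of rows called. Of the 24 other mesenchymal genes tested, 6 rose and 2 fell, with a list median of 0.017 against 0.008 over all rows. TAGLN, the actin-binding protein transgelin, rose most clearly (log2 fold change 0.58 ± 0.05, SE, adjusted p by limma = 3.13e-05) and was 0.58 after the GC and length correction. ACTA2 rose by 0.30 ± 0.05 (SE, adjusted p = 0.00196), while TNC (-0.42 ± 0.09, SE, adjusted p = 0.00768) and the cadherin CDH6 (-0.26 ± 0.06, SE, adjusted p = 0.0112) fell. After the correction 3 of the 6 rises no longer passed, namely S100A4 (0.01, limma adjusted p = 0.855), LGALS1 (0.18, adjusted p = 0.0515) and PLAUR (0.12, adjusted p = 0.342), while ACTA2, TNC and CDH6 were among those that still did. MMP14, not called before the correction (0.14, limma adjusted p = 0.0514), passed after it (0.12, adjusted p = 0.0168). Of the 10 other transcription factors and their inhibitors tested, 4 rose and 0 fell. ID1 (0.52 ± 0.05, SE, adjusted p = 2.95e-05) and ID3 (0.40 ± 0.05, SE, adjusted p = 0.000126), which bind basic helix-loop-helix factors and keep them from DNA, passed after the correction at 0.34 and 0.22, whereas ID2 (adjusted p = 0.126) and TCF3 (adjusted p = 0.0524) did not.

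Of the 9 other epithelial genes tested, 3 rose and 0 fell. The claudin CLDN7 (log2 fold change 0.32 ± 0.08, SE, adjusted p by limma = 0.0193) and the adaptor subunit AP1M2 (0.35 ± 0.10, SE, adjusted p = 0.0245) led them, and after the correction neither passed (adjusted p = 0.159 and 0.135), nor did KRT8 (adjusted p = 0.0999). MUC1, of the same list, was not called before the correction (-0.22, limma adjusted p = 0.0575). After the correction it was called lower (-0.36, limma adjusted p = 0.00571), and also by label with GLUP alone (-0.41, adjusted p = 0.037). Of the 3 epithelial regulators tested, 1 fell, the zinc finger factor KLF4 (-0.35 ± 0.06, SE, adjusted p = 0.00224). In untreated cells it was at 3.81 ± 0.117 FPKM in WT and 3.23 ± 0.0638 FPKM in TEAD4KO (SD). There 0 of the 3 regulators reached an unadjusted p under 0.05 by limma. With GLUP KLF4 was at 4.12 ± 0.305 and 2.59 ± 0.304 FPKM and was called (-0.51, limma adjusted p = 0.00515). The interaction of KLF4 was -0.33 ± 0.13 (SE, limma unadjusted p = 0.0213) and was not called. Averaged over both treatments, KLF4 stayed called after the correction at -0.39. Of 14 co-repressors through which SNAI and ZEB factors act, 4 fell and 0 rose. They included RCOR1, a scaffold of the KDM1A complex (-0.30 ± 0.06, SE, adjusted p = 0.00354), and SUZ12, a subunit of Polycomb repressive complex 2 (-0.25 ± 0.06, SE, adjusted p = 0.00779). Of the 4, SIN3A did not pass after the correction (adjusted p = 0.0524).

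Of 12 genes for the turnover of SNAI proteins, 2 rose and 0 fell. These were FBXL14, an F-box protein that directs SNAI1 to degradation (log2 fold change 0.34 ± 0.07, SE, adjusted p by limma = 0.00572), and the kinase CSNK1A1 (0.16 ± 0.05, SE, adjusted p = 0.041). After the correction FBXL14 no longer passed (0.22, limma adjusted p = 0.0967) and CSNK1A1 did (0.20, adjusted p = 0.0257). Of 12 genes of the cadherin complex, 0 passed by limma and 3 reached an unadjusted p under 0.05. Of the 6 fibroblast markers 0 passed by label by limma and 1 reached an unadjusted p under 0.05. That marker, COL1A1, was lower and passed after the correction (-0.28, limma adjusted p = 0.0353). The red cell marker HBA1, at 28.6 to 53.0 FPKM over all libraries, was higher by label (log2 fold change 0.36, adjusted p by limma = 0.0147, and 0.04 after the correction), while HBB was listed at 0 throughout, and reads of HBA1 may be shared with its near-identical copy HBA2. The part of these markers in the results was not tested.

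Within single treatments the lists gave fewer calls. Of the 84 genes tested, 6 rose and 0 fell by label in untreated cells, beside 5.42% of all rows called, and 3 rose and 3 fell with GLUP, beside 5.84%, so both counts were near the share of all rows. Of the 6 that rose in untreated cells, ACTA2 (limma adjusted p = 0.0606), LGALS1 (adjusted p = 0.226), ID3 (adjusted p = 0.0843) and FBXL14 (adjusted p = 0.15) did not pass after the correction. TAGLN had log2 fold changes of 0.58 in both (limma adjusted p = 0.00221 and 0.00149), and ID1 had 0.52 in both (adjusted p = 0.00167 and 0.00127). KLF4 fell by 0.51 on the log2 scale with GLUP (adjusted p = 0.00515), beside TNC and RCOR1.

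Rows whose profile over the 12 libraries was most like those of the called genes were also listed, with Pearson's r on log2(FPKM + 1) as a description over libraries that share groups. The closest to VIM were MFSD5 (0.985), KYAT3 (0.977) and NOA1 (0.977). Those to FN1 were ZNF493 (0.981), DIDO1 (0.978) and LMBR1L (0.976), and GRN (0.955) and IFITM1 (0.946) were among those to TWIST1.

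The annotation limits some values. On GRCh37, exons of 7 of the 10 genes share bases with exons of 9 other annotated genes, 8 of them on the opposite strand, such as VIM-AS1 at VIM and ZEB1-AS1 at ZEB1, and 0 of these 9 had a row of their own. Whether reads were counted by strand is not stated in the sources used here, so reads from these pairs cannot be told apart.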

How the data were processed

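RNA of 12 HGC-27 samples was sequenced, and the authors deposited 1 table of FPKM values with 1 column per sample, each matched by its title, and 1 row per Ensembl gene. Replicates were not pooled and 0 columns were left unmatched. The submitters' processing notes name hg19, HISAT2, Cufflinks and RSEM, without roles or versions, and the study's methods an online platform. Depth is unknown: the values kept no steps of whole reads, so no counts were recovered and no interval from depth is given.

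Values were analysed as log2(FPKM + 1), with a pseudocount of 1, for 11225 rows whose mean over the libraries reached 1 FPKM. The 12 samples entered a single model of 4 groups (limma 3.58.1, R 4.3.3, empirical Bayes with an intensity trend). Tests were two-sided, and p-values were adjusted by the Benjamini-Hochberg method over all rows within each of 5 comparisons and 2 added after seeing the data (the averages over genotype and over treatment). A call needed an adjusted p under 0.05. The smallest p of a permutation of 3 against 3 samples is 0.1, so none was run. The model was tested on simulated data.

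Alternatives changed the pseudocount (0.1), the filter (none, 17969 rows, or a mean of 5 FPKM, 8182 rows), the scaling (median-ratio or quantile), the trend (none), the weights (per array) and the samples (the compared groups alone). Others were a block for the replicate number, a correction for GC content and transcript length by splines with 5 degrees of freedom (98.7% of tested rows had values), both of these together, a fold over 2, each sample left out in turn and, added after seeing the data, 2 libraries left out together. Whether replicate numbers pair the samples was checked by the correlation of deviations from group means between genotypes. Libraries numbered 14, 15 and 16 in the titles had 0.106, 0.152 and 0.336 and counted as paired. The unmatched pairs of WT 14 with TEAD4KO 15 (0.134) and WT 15 with TEAD4KO 14 (0.116) were also above 0.106. The pairing entered only the block alternatives, and the model of 4 groups held no block. For those numbered 1, 2 and 3 the values were -0.057, 0.203 and -0.015, and they did not count as paired, although the block setting covered them too.

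The 10 genes, the lists and the tests were chosen with earlier results of these data known. Every member is named, and from each other list up to 2 genes per direction with the smallest adjusted p. Genes named for their level or for their value after the GC and length correction, TNC in WT cells and the marker PDGFRA were chosen after their values were seen. Symbols and positions came from GENCODE release 44 on GRCh37, and promoter windows from RefSeq (GRCh38.p14). Some items of the lists are not reported here.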

Additional observations from a re-analysis of the deposited data

How the results depend on the processing

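Over 38 results, 373 of 408 values from other settings and 422 of 456 with 1 library left out kept their direction and their side of the threshold. The number of genes called with GLUP in WT cells was 1 with array weights (CDH1) instead of 0. By label in untreated cells it was 1 instead of 0 with a mean of at least 5 FPKM, array weights, only the groups compared or the replicate block (TWIST1, adjusted p = 0.0448 with the block, although these libraries were not paired), 3 with the 2 libraries that stood apart left out, and 0 to 1 with 1 library left out (FN1 without TEAD4KO untreated replicate 1, TWIST1 without TEAD4KO GLUP replicate 14 or 16). By label with GLUP it was 3 with array weights, 2 with the replicate block, 3 without both libraries that stood apart and 0 to 3 with 1 left out. By label over both treatments it was 1 with no filter, 1 with the GC and length correction, 0 with a fold over 2 and 1 to 3 with 1 library left out (1, TWIST1, without WT untreated replicate 3 or WT GLUP replicate 16) against 3. The cause of these moves was not tested, except that fewer samples or a stricter limit set some of them. Directions that turned belonged to log2 fold changes near 0. With GLUP in WT cells these were VIM (0.0115 with quantile normalization) and SNAI2 (-0.0142 with median-ratio scaling, -0.0044 with the GC and length correction, and -0.0135 to 0.0447 with 1 library left out). With GLUP in cells labelled TEAD4KO they were FN1 (-0.0046 with that correction and -0.16 to 0.26 with 1 library left out), VIM (-0.0595 to 0.11), SNAI2 (-0.11 to 0.0563) and TWIST1 (-0.0265 to 0.15). By label in untreated cells they were ZEB1 (-0.0242 with quantile normalization, -0.0812 to 0.14), ZEB2 (-0.0161 with median-ratio scaling, -0.0068 with quantile normalization, -0.0091 with array weights, -0.0322 to 0.0373) and SNAI1 (-0.0356 with the GC and length correction, with or without the replicate block). By label with GLUP ZEB2 was at -0.0921 with array weights, -0.11 without both libraries that stood apart and -0.11 to 0.086 with 1 library left out. With depth unknown, no error from counting can be given for any gene.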

Other observations

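The cadherin that stood out in these cells was neither E-cadherin nor N-cadherin. Among 23 rows of the table whose symbol is CDH with a number, a set chosen after the values were seen, 6 had a mean of at least 1 FPKM. CDH6, a type II cadherin known from kidney development, was the highest, at 38.9 to 55.1 FPKM in the 12 libraries, followed by CDH24 at 10.4 to 14.9 FPKM. CDH13, a cadherin anchored by a lipid, was at 2.38 to 3.78 FPKM and CDH1 at 2.04 to 3.68 FPKM, so that these ranges overlapped. P-cadherin (CDH3) was at 0.853 to 1.62 FPKM. CDH11, a cadherin of mesenchymal cells, was listed at 0 in 10 of 12 libraries, and CDH2 reached at most 0.149 FPKM.

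The rows most like CDH1 over the 12 libraries were HS6ST1 (Pearson's r = 0.936), DLX3 (0.918) and URGCP (0.838), named here although CDH1 passed in no comparison, a choice made after the values were seen.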
